A study of Sus scrofa with 12 samples.

Results

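ANKRD1 and CYR61 are genes that muscle and its connective tissue induce when they are stretched or injured. They were followed in a thigh muscle, the semimembranosus, of 3 female commercial hybrid pigs of about 160 kg that had been stunned with CO2 at 87%. The left leg of each pig was sampled in the same place 4 times after death, first at 20 min and then at 2 h, 6 h and 24 h as the cold chain brought the meat to 4 °C. Each portion had its own Affymetrix porcine array, so each time has 3 arrays and each pig 4, and nothing was sampled from a living animal. Both genes were chosen by name, with their values over the 4 times already known. Their own levels and changes are therefore given as descriptions without a test.

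All probe sets with ANKRD1 or CYR61 as their single gene symbol were taken, which gave 3 probe sets for 2 of the 6765 genes named on the array. ANKRD1 had 2 of them, 1 designed on its RefSeq mRNA (the RefSeq set) and 1 on an expressed sequence tag, a partial cDNA read (the EST set). CYR61 had 1, also designed on an expressed sequence tag. The symbols come from a platform annotation of 2016, and the gene IDs of all 3 sets match genes of the same names in the Sscrofa11.1 RefSeq table. Levels are log2 intensities after RMA, which gives all arrays nearly the same distribution, so 1 unit is a 2-fold difference on the same probe set. The levels of different probe sets are not comparable.

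ANKRD1 encodes CARP, a muscle ankyrin repeat protein that binds the I-band region of the giant protein titin and can also enter the nucleus, where it affects transcription. In healthy limb muscle it is known as a gene of low activity that is induced by stretch, denervation and injury. CYR61, now also called CCN1, encodes a secreted protein of the extracellular matrix that binds integrins and is made by fibroblasts, endothelial cells and smooth muscle cells. It is a classic immediate early gene, one that cells transcribe within minutes of a stimulus, and its mRNA is short-lived. Both genes are known targets of the transcriptional coactivators YAP and TAZ, which act through TEAD factors and respond to mechanical load, and serum response factor (SRF) also acts on CYR61.

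The levels of both genes differed more from pig to pig than from time to time. Pig 1 had the lowest level of all 3 probe sets at each of the 4 times. ANKRD1 was lower at each later time than at 20 min in every pig on both of its probe sets, whereas CYR61 was lower in some pigs and higher in others.

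On the RefSeq set, ANKRD1 had levels of 11.34, 9.83, 10.81 and 9.08 in pig 1 at 20 min, 2 h, 6 h and 24 h. In pig 2 its levels at these times were 13.39, 12.82, 12.52 and 12.90. In pig 3 they were 13.02, 12.80, 12.55 and 11.76. Pig 1 thus stayed below the lowest array of the other pigs throughout, and the values at 24 h overlapped those at 20 min when all pigs were pooled. Pig 3 had its lowest value at 24 h, as did pig 1, while pig 2 had its lowest at 6 h.

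On the EST set of ANKRD1 pig 1 was again lowest and pig 2 highest at each time, whereas on the RefSeq set pig 3 lay marginally above pig 2 at 6 h. Its levels were 5.79, 4.53, 4.70 and 4.74 in pig 1 at 20 min, 2 h, 6 h and 24 h. They were 10.11, 9.04, 7.96 and 9.10 in pig 2, and 8.57, 7.67, 7.49 and 6.30 in pig 3. In pig 1 the 3 later values were nearly level, and in pig 2 the value at 24 h lay above that at 6 h. Detection calls for single probe sets were not used here, so it is not known how far the values of pig 1 stand above background.

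CYR61 had levels of 7.61, 7.35, 7.70 and 7.15 in pig 1 at 20 min, 2 h, 6 h and 24 h. In pig 2 the levels were 10.61, 10.89, 10.94 and 11.01, the highest of the 3 pigs at each time. In pig 3 they were 9.38, 8.88, 8.94 and 8.61. The 3 pigs formed 3 separate bands, and no array of one pig reached the band of another. The pooled values at 24 h overlapped those at 20 min.

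**Figure D1:**
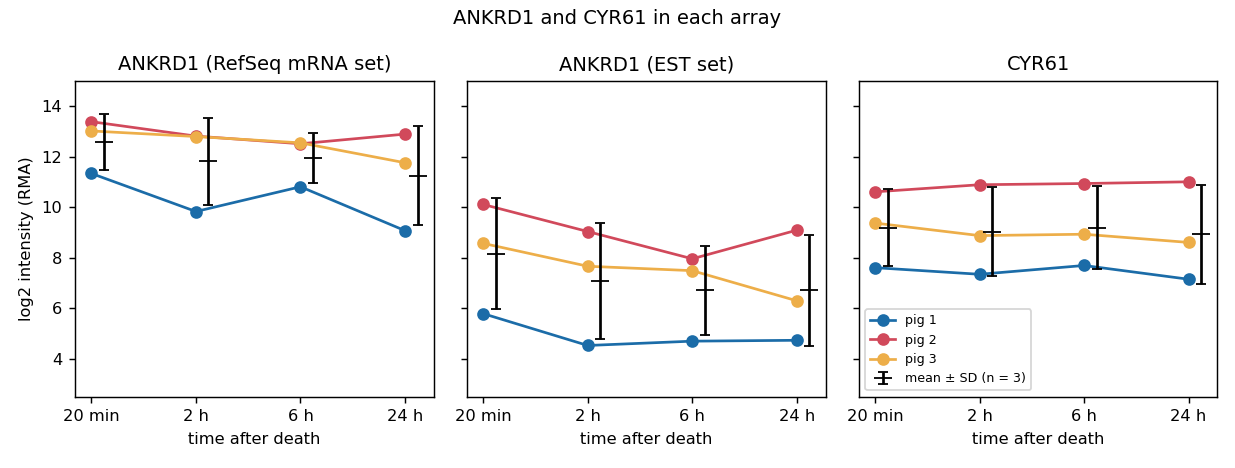
Log2 intensity (vertical axis) of the 3 probe sets at 20 min, 2 h, 6 h and 24 h after death, with a coloured line for each pig and the mean ± SD over 3 pigs in black. Pig 1 lies lowest in every panel, and the CYR61 lines of the 3 pigs stay apart, at 7.15 to 7.70 in pig 1, 10.61 to 11.01 in pig 2 and 8.61 to 9.38 in pig 3.

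The spread between pigs was among the widest on the array. Averaged over the 4 times, CYR61 had a level of 7.45 in pig 1, of 10.87 in pig 2 and of 8.95 in pig 3. That is a range of 3.41, or 10.6-fold, and CYR61 ranked 4 of 23999 probe sets by it. The 4 time means of CYR61 spanned only 0.28, or 1.21-fold, rank 4017. The range between pigs was 12.4 times the range of the time means on the log2 scale. Opposite changes of the pigs partly cancel in the time means. Within pigs 1, 2 and 3 CYR61 spanned 0.54, 0.40 and 0.77 over the 4 times, still well below 3.41.

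ANKRD1 combined a wide spread between pigs with a wide spread between times. On the EST set the pig means were 4.94, 9.05 and 7.51 in pigs 1, 2 and 3, a range of 4.11 (17.3-fold, rank 2 of 23999), and the time means spanned 1.45 (2.73-fold, rank 7). On the RefSeq set the pig means were 10.27, 12.91 and 12.54, a range of 2.64 (6.23-fold, rank 21), and the time means spanned 1.34 (2.53-fold, rank 11). Over all probe sets the median range was 0.18 between pigs and 0.17 between times, and 54.2% of the sets were wider between pigs. The arrays of a pig share an animal and a muscle and are not replicates of a condition, so the difference between pigs has no test.

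The values of pig 1 lay wholly below those of pigs 2 and 3 for all 3 member probe sets, against 3.16% of all probe sets. The ranges of the 3 pigs were fully apart for CYR61 and for neither ANKRD1 set, against 1.59% of all probe sets. Whether the pigs differed in stretch, handling or another respect is not recorded in the labels. At each time the fold between the highest and the lowest pig was large. For CYR61 it was 8.01-fold at 20 min and 14.5-fold at 24 h, for the RefSeq set of ANKRD1 4.14-fold and 14.1-fold, and for its EST set 20.0-fold and 20.5-fold.

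**Figure D2:**
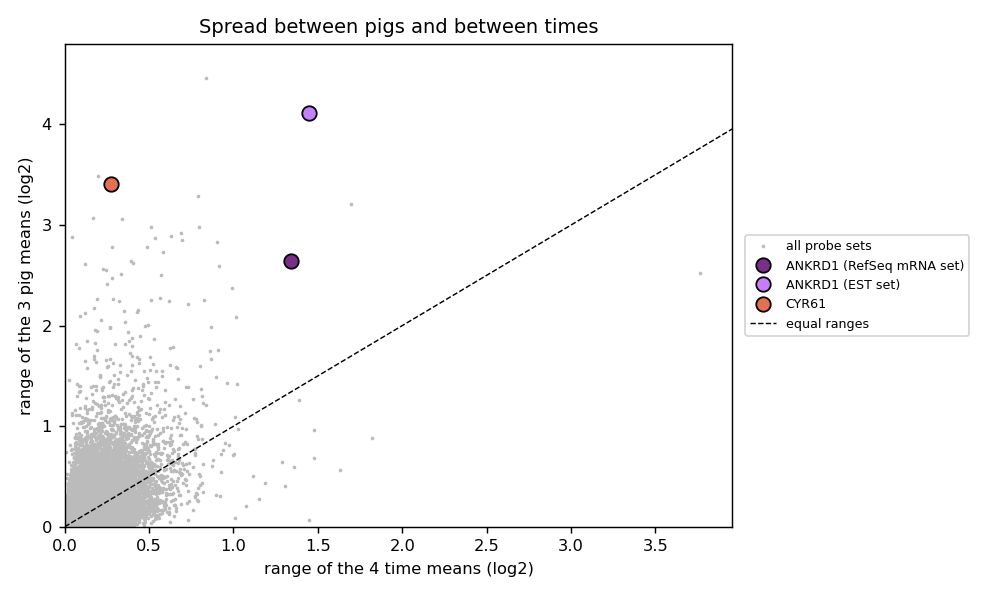
Range of the 3 pig means (vertical axis, log2) against the range of the 4 time means (horizontal axis, log2) for all 23999 probe sets, in grey, with the 3 probe sets of ANKRD1 and CYR61 in colour. CYR61 lies high and to the left, with 3.41 between pigs and 0.28 between times, while the ANKRD1 sets lie high and to the right.

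ANKRD1 was lower after 20 min on both probe sets. At 2 h the RefSeq set averaged 11.82 ± 1.72 (SD, n = 3 pigs), against 12.58 ± 1.09 at 20 min, and the changes in pigs 1, 2 and 3 were -1.51, -0.57 and -0.22. Their mean was -0.77 ± 0.66 (SD, n = 3), a 1.70-fold lower level, and without pig 1 it was -0.40. On the EST set the changes at 2 h were -1.26, -1.07 and -0.91, with a mean of -1.08 ± 0.18, rank 2 from the lowest of 23999. Both sets were lower in 3 of 3 pigs at 2 h, as were 14% of all probe sets, and the EST set was among the 0.00833% whose mean was lower by at least 2-fold.

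At 6 h the probe sets agreed in direction and differed in size. The RefSeq set averaged 11.96 ± 0.99 (SD, n = 3), against 12.58 ± 1.09 at 20 min, with changes of -0.53, -0.87 and -0.47 in pigs 1, 2 and 3 and a mean of -0.62 ± 0.22. On the EST set the changes were -1.09, -2.15 and -1.08, with a mean of -1.44 ± 0.62, a 2.71-fold lower level. Both were lower in 3 of 3 pigs, as were 16.6% of all probe sets, and the EST set was among the 0.0125% lower by at least 2-fold. The mean of both probe sets at 6 h was -1.03, over 1.5 times the value of the RefSeq set alone.

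At 24 h the RefSeq set of ANKRD1 had its lowest mean, and the mean of the EST set was close to that at 6 h. The RefSeq set averaged 11.25 ± 1.96 (SD, n = 3), against 12.58 ± 1.09 at 20 min, and the EST set 6.71 ± 2.21 against 8.16 ± 2.19. The changes of the RefSeq set were -2.26, -0.49 and -1.26 in pigs 1, 2 and 3, with a mean of -1.34 ± 0.89, and without pig 1 the mean was -0.88. Those of the EST set were -1.05, -1.02 and -2.27, with a mean of -1.45 ± 0.71. Pig 1 thus had the largest change on one set and pig 3 on the other. Both sets were lower in 3 of 3 pigs, as were 16.7% of all probe sets, and both were among the 0.0792% lower by at least 2-fold.

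The course between the later times was not shared by the pigs. Between 2 h and 24 h the RefSeq set of ANKRD1 differed by -0.76, 0.08 and -1.04 in pigs 1, 2 and 3, and the EST set by 0.21, 0.05 and -1.37. Between 6 h and 24 h the RefSeq set differed by -1.74, 0.38 and -0.79, and the EST set by 0.03, 1.13 and -1.19. Pig 2 was higher at 24 h than at 6 h on both sets and pig 3 lower on both, while the sets disagreed in pig 1.

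CYR61 did not share this course. At 2 h its changes from 20 min were -0.26, 0.28 and -0.50 in pigs 1, 2 and 3, with a mean of -0.16 ± 0.40 (SD, n = 3). At 6 h they were 0.09, 0.33 and -0.44, with a mean of -0.01 ± 0.40. At 24 h CYR61 averaged 8.93 ± 1.95, against 9.20 ± 1.51 at 20 min, with changes of -0.46, 0.40 and -0.77 and a mean of -0.28 ± 0.60. Pig 2 was higher at every later time, pig 3 was lower at every later time, and each mean was smaller than its SD. Without pig 3 the mean change was 0.01 at 2 h, 0.21 at 6 h and -0.03 at 24 h.

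**Figure D3:**
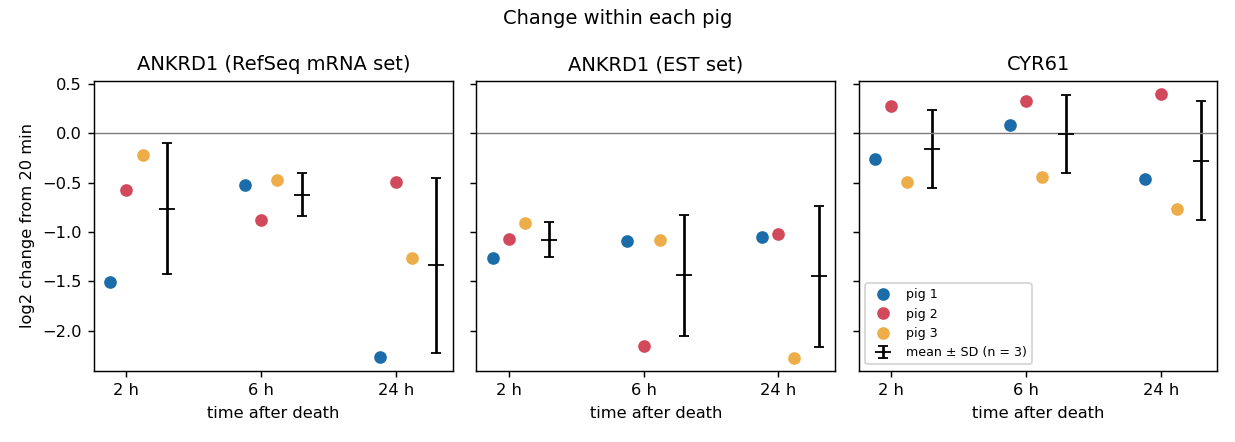
Log2 change from 20 min within each pig (vertical axis) at 2 h, 6 h and 24 h for the 3 probe sets, with coloured points for the pigs and the mean ± SD over 3 pigs in black. All points of both ANKRD1 sets lie below 0, from -0.22 to -2.27, while the CYR61 points of pig 2 lie above 0 at all 3 times and those of pig 3 below.

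Control probe sets at both ends of the EF1A mRNA give a sign of RNA breakdown, since the level at the 3′ end exceeds that at the 5′ end by more as RNA is degraded. This excess was 0.38 higher at 24 h than at 20 min in pig 1 and 0.47 higher in pig 3, and it differed by -0.01 in pig 2. Pig 2 also had the smallest change of ANKRD1 at 24 h on the RefSeq set and was the pig with a higher CYR61. On the EST set its change (-1.02) was close to that of pig 1 (-1.05). At 6 h the EF1A excess differed by 0.06, -0.04 and 0.21 in pigs 1, 2 and 3, and pig 2 had the largest change of ANKRD1 on both sets, -0.87 and -2.15. At 2 h the EF1A excess differed by 0.08, 0.49 and 0.26 from 20 min in pigs 1, 2 and 3. The RefSeq set of ANKRD1 differed by -1.51, -0.57 and -0.22, and the EST set by -1.26, -1.07 and -0.91. The same measure for actin differed by 0.09, -0.23 and -0.04 at 24 h, and that for GAPDH by 0.06, 0.01 and 0.04. At 2 h actin differed by -0.22, 0.31 and -0.19, and at 6 h by -0.34, -0.20 and -0.01, so the controls did not share 1 course. For GAPDH the differences were 0.001, 0.04 and -0.07 at 2 h and -0.005, -0.09 and -0.05 at 6 h. The EF1A excess itself was 0.48, 0.63 and 0.23 in pigs 1, 2 and 3 at 20 min, and 0.86, 0.62 and 0.70 at 24 h. The part of RNA quality in the ANKRD1 and CYR61 values was not tested. All 3 comparisons with 20 min use the same 20 min arrays.

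Muscle fibre markers had nearly the same sum on all arrays. They are very bright probe sets, with mean levels from 13.91 to 14.48. At that height the normalisation to a nearly shared distribution leaves values little room to move, so a change in fibre content could stay hidden. The summed linear intensity of 8 fibre markers, among them CKM, MYH7, MYH2 and TTN, lay between 152995 and 153961 at 24 h and between 149057 and 153012 at 20 min. Between pigs it also hardly moved, with 149915 to 153961 in pig 1, 150210 to 152995 in pig 2 and 149057 to 154576 in pig 3. Markers of the cells known to make CYR61 differed in their order of pigs. The sum of 6 fibroblast markers reached 6790 to 8493 in pig 1, 4545 to 5673 in pig 2 and 6828 to 10554 in pig 3. It was thus lowest in the pig with the highest CYR61. Such sums are weighted towards the brightest probe set, DCN for the fibroblasts (mean level 12.06) and ACTA2 for smooth muscle and pericytes (11.73). The sum of 7 endothelial markers was 1571 to 1644 in pig 1, 1660 to 2139 in pig 2 and 1511 to 1996 in pig 3. For 5 smooth muscle and pericyte markers it was 5418 to 5740, 6082 to 7681 and 5595 to 7529 in these pigs. The highest single sums of endothelial and of smooth muscle markers were in pig 2, which also had the highest CYR61. Pig 3 was the highest for the endothelial markers at 20 min (1954, against 1660 in pig 2), and pig 2 at the later times. Smooth muscle and pericyte markers had a higher sum in pig 3 than in pig 2 at 20 min (7529 against 6185). The same held at 2 h (6619 against 6082) and 6 h (6651 against 6592). The ranges of both sums differed far less between pigs than CYR61 did. At 24 h the mean change of the endothelial markers was -0.03, 0.31 and -0.29 in pigs 1, 2 and 3, and that of the smooth muscle and pericyte markers -0.03, 0.28 and -0.39. At 24 h these means have the sign of the CYR61 change in each pig, which the fibroblast markers (0.11, -0.01 and -0.49) do not. In pig 1, however, both means were only -0.03, and single markers differed in sign, with VWF at 0.16 and CLDN5 at -0.20. Among the smooth muscle and pericyte markers, RGS5 was higher at 24 h in all 3 pigs (0.12, 0.54 and 0.27). It was the only 1 of the 5 to be so, and 0 were lower in all 3. At the earlier times the signs differed in some pigs. In pig 3 the mean change of the endothelial markers was 0.03 at 2 h and 0.09 at 6 h, where CYR61 had -0.50 and -0.44, and in pig 1 that of the smooth muscle and pericyte markers was 0.03 at 2 h, where CYR61 had -0.26.

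Over time, the sum of the fibroblast markers was 5673 to 8157 at 24 h and 5544 to 10554 at 20 min, and that of the endothelial markers 1511 to 2066 and 1639 to 1954. Smooth muscle and pericyte markers summed to 5418 to 7681 at 24 h and 5496 to 7529 at 20 min. The 6 macrophage markers summed to 267 to 467 at 24 h and 567 to 1110 at 20 min, and 5 of the 6 had a lower mean at 24 h. Their mean change at 24 h was -0.42, -0.38 and -1.70 in pigs 1, 2 and 3. The 4 adipocyte markers summed to 1122 to 1906 at 24 h and 1433 to 2845 at 20 min, with FABP4 the brightest (mean level 10.54). The part of other cell types in the ANKRD1 and CYR61 values was not tested. In whole muscle, fewer cells of a type and less RNA per cell cannot be told apart.

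Genes related to ANKRD1 and CYR61 were tested in the fit of all 12 arrays, with p-values adjusted over 23999 probe sets. In limma's test with pig as a block, 0 probe sets (0%) passed an adjusted p of 0.05 at 2 h and at 6 h, and 1 (0.00417%) did at 24 h, which was not one of the related genes. At 2 h an unadjusted p under 0.05 was seen for 3.94% of all sets as lower and 4.01% as higher. At 6 h these shares were 4.54% and 4.29%, and at 24 h 6.67% and 6.41%. The median change of all probe sets at 24 h was 0.008. Where a gene had several probe sets, the brightest stood for it.

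Among the sarcomeric partners of CARP, the titin gene itself did not share the course of ANKRD1. TTN (mean level 14.12) is, however, one of the very bright fibre markers above, for which a change could stay hidden. The same limit holds for FHL1 (14.20), and it also bears on the median of the list. The 10 partner genes include those of titin, of titin-binding proteins and of the Y-box factors through which CARP acts on transcription, and genes of other partners. Of the 10, 2 were lower and 1 higher at 24 h at unadjusted p under 0.05, and the median change was 0.03. The log2 change was -0.45 ± 0.45 (SD, n = 3 pigs, limma adjusted p = 0.257) for FHL2, a LIM-domain adaptor of the sarcomere, and -0.27 ± 0.02 (adjusted p = 0.358) for TRIM55, a titin-bound ubiquitin ligase. It was 0.19 ± 0.17 (adjusted p = 0.376) for DES, the intermediate filament desmin, and 0.09 ± 0.06 for FHL1, and 0.09 ± 0.02 for TTN. At 2 h none of the 10 had an unadjusted p under 0.05, and at 6 h 2 were higher and 0 lower. Without pig 1 the number past that p was 2 at 2 h, without pig 2 or without pig 3 it was 0 at 6 h, and at 24 h it was 1 without pig 2 and 1 without pig 3. The other muscle ankyrin repeat genes, ANKRD2 and ANKRD23, were not analysed here.

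The genes that could be followed in the pathway upstream of both members had small changes. The list of this pathway held 22 symbols, of which 8 genes were found by symbol on the array. The genes of YAP and TAZ themselves were not among the 8, so the pathway was covered only in part. Of 8 genes of the Hippo pathway, which restrains YAP and TAZ, and of the TEAD factors, 1 was lower at 24 h at unadjusted p under 0.05 and 0 were higher, with a median change of -0.13. That gene was VGLL4, a competitor of YAP for TEAD, with changes of -0.17, -0.61 and -0.76 in pigs 1, 2 and 3 (mean -0.51 ± 0.31, limma adjusted p = 0.193). SAV1, a scaffold of the Hippo kinases, had a mean change of -0.28 ± 0.42, LATS2, one of those kinases, -0.19 ± 0.31, and the junction protein gene AMOTL1 0.04 ± 0.18. At 2 h 0 of the 8 had an unadjusted p under 0.05, and at 6 h VGLL4 alone did (-0.59 ± 0.25, limma adjusted p = 0.463). Without pig 1 the number was 3 at each of the 3 times, and without pig 3 it was 1 at 2 h.

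The list of YAP and TAZ target genes held 22 symbols, and 6 genes other than ANKRD1 and CYR61 were found by symbol. Of these 6, 1 was lower at 24 h at unadjusted p under 0.05 and 0 were higher, with a median change of -0.15. GADD45A, a growth arrest gene, had changes of -0.88, -0.50 and -0.62 in pigs 1, 2 and 3 (mean -0.67 ± 0.20, limma adjusted p = 0.210). The log2 change of F3, which encodes tissue factor, was -0.06, 0.06 and -0.72 in these pigs. That of TGFB2, a transforming growth factor gene, was 0.06, -0.59 and 0.19, and that of CRIM1, which encodes a membrane protein that binds growth factors, 0.12, 0.18 and -0.11. LATS2, also a YAP target, had -0.19 ± 0.31 and ASAP1 0.04 ± 0.16. GADD45A was thus the 1 gene of the 6 that was lower in all 3 pigs. At 2 h GADD45A (-0.52 ± 0.12, adjusted p = 0.587) and F3 (-0.41 ± 0.51, adjusted p = 0.608) had an unadjusted p under 0.05, and at 6 h 0 of the 6 did. Without pig 3 the number at 2 h was 0, without pig 1 or without pig 2 it was 1 at 6 h, and at 24 h it was 1 whichever pig was left out.

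Among 14 target genes of SRF and its coactivators, 5 were lower and 0 higher at 24 h at unadjusted p under 0.05. The 5 include FHL2, also counted among the partners of CARP, and the vinculin gene VCL, also counted among the focal adhesion genes below. The median change of the 14 was -0.15, and SRF itself was not among them. The immediate early gene FOS, a subunit of AP-1, had changes of -1.07, -0.21 and -1.24 in pigs 1, 2 and 3 (mean -0.84 ± 0.55, limma adjusted p = 0.193), and the early transcription factor gene EGR1 -0.18, -0.62 and -0.89 (mean -0.56 ± 0.36, adjusted p = 0.302). ACTC1, the cardiac actin gene, had changes of -0.73, -0.21 and -0.58 (mean -0.51 ± 0.27, adjusted p = 0.223), while the mean change of the cytoskeletal actin gene ACTG1 was 0.01 ± 0.01. FOS and EGR1 also had the low level of pig 1. The mean over the 4 times was 8.03, 12.49 and 12.02 in pigs 1, 2 and 3 for FOS, and 5.69, 8.51 and 8.09 for EGR1. At 2 h 3 of the 14 genes were lower and at 6 h 2, with 0 higher at either time. With pig as a random block, whose correlation is estimated, the numbers were 1 at 2 h, 0 at 6 h and 2 at 24 h. Without pig 1 they were 1, 1 and 3, and without pig 3 they were 2, 2 and 3; without pig 2 there was 1 at 6 h.

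Focal adhesion and mechanosensing genes, 11 in number, had 3 lower and 0 higher at 24 h at unadjusted p under 0.05, with a median change of -0.08. XIRP1, which encodes an actin-binding protein of the muscle-tendon junction, had changes of -0.77, -0.01 and -0.71 in pigs 1, 2 and 3 (mean -0.50 ± 0.42, limma adjusted p = 0.300). The mean change was -0.30 ± 0.12 (limma adjusted p = 0.329) for ITGB1BP2, which encodes the integrin-binding protein melusin, -0.20 ± 0.07 (adjusted p = 0.342) for VCL, the vinculin gene, and -0.06 ± 0.20 for XIRP2. At 2 h 1 of the 11 was lower at unadjusted p under 0.05 and at 6 h 0. The 3 genes at 24 h became 0 with pig as a random block, without a block, without pig 1 and without pig 3. At 2 h the number was 2 without pig 1 or without pig 2 and 0 without pig 3, and at 6 h it was 1 without pig 3.

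Receptors of the CYR61 protein are mainly integrins. Of 10 receptor genes, 3 were lower and 0 higher at 24 h at unadjusted p under 0.05, and the median change was -0.03. ITGB3, a partner chain of the αv integrin, had changes of -0.33, -0.27 and -0.66 in pigs 1, 2 and 3 (mean -0.42 ± 0.21, limma adjusted p = 0.217). The mean change was -0.26 ± 0.13 (limma adjusted p = 0.260) for ITGB1 and -0.24 ± 0.19 (adjusted p = 0.351) for the leukocyte integrin gene ITGB2. It was -0.03 ± 0.09 for the αv chain gene ITGAV and 0.16 ± 0.04 for the coreceptor gene SDC4. At 2 h 1 receptor gene was lower and 1 higher, and at 6 h 1 was lower. Without pig 2 the number was 0 at both times, without pig 1 it was 0 at 6 h, and at 24 h it was 2 without pig 1 and 1 without pig 3. The CCN relatives of CYR61 were not analysed here.

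**Figure D4:**
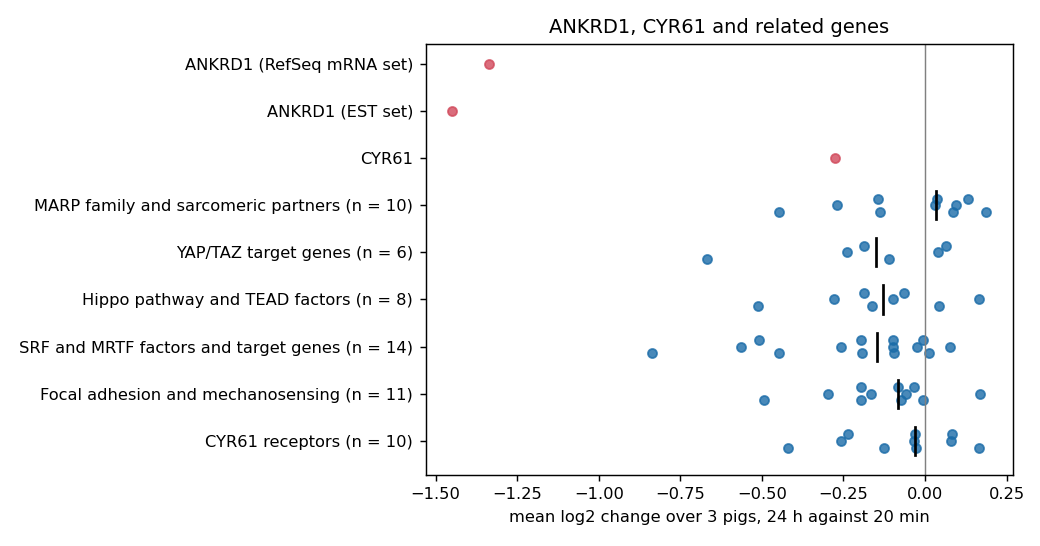
Mean log2 change over 3 pigs, 24 h against 20 min (horizontal axis), of the 3 probe sets of ANKRD1 and CYR61 in red and of 6 lists of related genes in blue, 1 point per gene, with the median of each list as a black bar. The 2 ANKRD1 sets lie at -1.34 and -1.45, left of every related gene, the lowest of which is FOS at -0.84, while CYR61 at -0.28 lies within the range of the related genes.

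The genes most like each member over time were found by subtracting from every probe set its own mean in each pig and taking the root mean square difference over the 12 arrays. This measure is a distance in log2 units, and it favours genes with changes of the same size. Each gene was placed by the closest of its probe sets, not by the brightest. The arrays of 1 pig share an animal and the 20 min array, so the distances are a description. For ANKRD1, on its RefSeq set, the nearest gene was ATF3, a stress-induced partner of AP-1, at 0.249. Its changes at 24 h were -2.59, -0.71 and -1.78 in pigs 1, 2 and 3. RRAD, a small GTPase gene of muscle, followed at 0.330, TIAM2, an activator of the GTPase Rac, at 0.331, MYC, an early growth gene, at 0.333, and RND3 at 0.340. Like ANKRD1, all 5 had negative changes at 24 h in each pig, smallest in pig 2 for all but TIAM2. The EST set of ANKRD1 lay farther away, at 0.501, even beyond CYR61, which was at 0.494 and place 156 among the probe sets with 1 symbol. The nearest genes are therefore those of the RefSeq set and need not be those of the EST set.

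For CYR61 the nearest gene was THBS1, which encodes thrombospondin 1, another secreted matrix protein, at 0.076. The 24 h changes of THBS1 in pigs 1, 2 and 3 were -0.43, 0.19 and -0.59, the same pattern of signs as CYR61. SLA-DQB1 at 0.091 and SLA-DQA1 at 0.098, both class II genes of the swine major histocompatibility complex, were also near, with ARPC1B, an actin-branching subunit gene, at 0.095 and SKAP2, an adaptor of leukocyte adhesion, at 0.105. All of them were higher in pig 2 and lower in pigs 1 and 3 at 24 h. Their distances are small in log2 units, and CYR61 itself spanned 0.54, 0.40 and 0.77 between its lowest and highest array in pigs 1, 2 and 3. Their levels did not share the spread of CYR61 between pigs: the pig means were 5.20, 5.60 and 5.42 for THBS1 and 8.52, 8.67 and 8.52 for SLA-DQB1. THBS1, and SKAP2 with pig means of 4.45, 4.54 and 4.87, lay below the array medians of 5.89 to 5.94. How far these sets stand above background is not known.

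**Figure D5:**
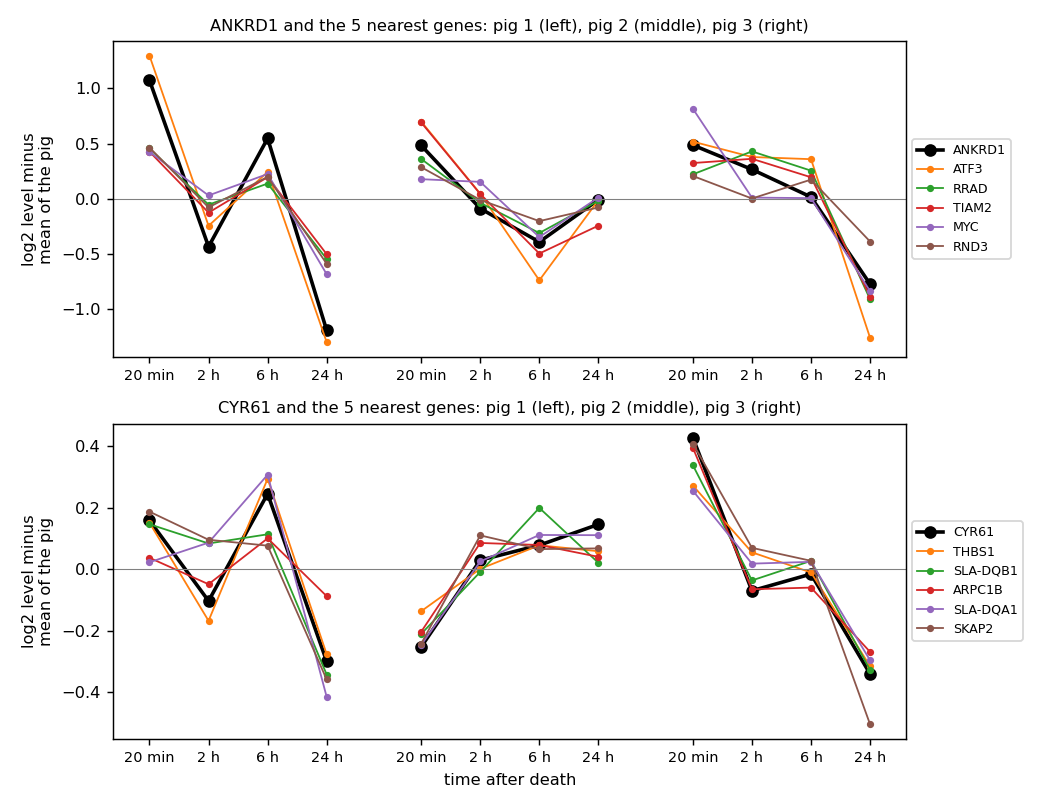
Log2 level minus the mean of the pig (vertical axis) at 20 min, 2 h, 6 h and 24 h in pigs 1, 2 and 3 from left to right, for ANKRD1 (RefSeq set, above) and CYR61 (below) in black and the 5 nearest genes of each in colour. ATF3 runs closest to ANKRD1, and in pig 2 CYR61 and its nearest genes have their lowest values at 20 min, while ANKRD1 has its highest there.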

How the data were processed

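The authors deposited 1 log2 intensity for each probe set and array. The submitters' processing notes name RMA, a method of background correction, quantile normalisation and probe summary, and the affy package, whose version is not given in these sources. Of 24123 probe sets, 124 controls were left out and 23999 were used without a filter. Array medians lay between 5.89 and 5.94. With 3 arrays per time, precision is limited. Groups and pig numbers came from the sample titles. The members, gene lists and tests were chosen with earlier results of these data known, and the spread between pigs was described after seeing it.

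Changes were taken within each pig and given as mean ± SD over 3 pigs. Genes outside the members were tested with limma 3.58.1 in R 4.3.3, in a fit of all 12 arrays with a fixed block for pig beside the 4 times, two-sided, Benjamini-Hochberg adjusted over 23999 probe sets; the script was tested on simulated data. The pigs pair the arrays because the design text says that each was sampled at all times; deviations from the time means correlated with r between 0.409 and 0.656 within a pig. From each list the 3 largest changes at 24 h and the brightest gene were named; from the list of 6 YAP and TAZ targets any gene could be named, and the 5 nearest genes of each member by root mean square difference. TTN, ITGAV, SDC4, THBS2 and the other widest sets were picked after their values were seen. Alternatives were other blocks, normalisations, priors, filters and each pig left out; those for the spread between pigs, the EST set, the listed genes and likeness over 12 arrays were chosen after seeing the data. No sequences were used.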

Additional observations from a re-analysis of the deposited data

How the results depend on the processing

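Over the alternatives, the ANKRD1 change at 24 h lay between -1.76 (without pig 2) and -0.88 (without pig 1). Taking the mean of its probe sets moved the 6 h change from -0.62 to -1.03, and without pig 1 the 2 h change was -0.40 instead of -0.77. The CYR61 change turned positive at 2 h without pig 3 (0.01) and at 6 h without pig 3 (0.21) or with the median over pigs (0.09); at 24 h it ran from -0.61 without pig 2 to -0.03 without pig 3. Cyclic loess and centring on the brightest 10% kept every sign of both genes. Without the replicate block, 727, 879 and 1394 probe sets had an unadjusted p under 0.05 at 2 h, 6 h and 24 h, against 1908, 2119 and 3138 with it. Leaving out each pig gave 1167 to 2349, 1073 to 2172 and 1681 to 2848, lowest without pig 3 at 2 h and 24 h and without pig 2 at 6 h. The 1 probe set past the adjusted threshold at 24 h was lost (0) in the fit without the replicate block, in that with a random block and in that of both times alone; leaving out each pig gave 0 to 2. At 2 h and 6 h the count stayed 0 in all these fits. The range of the pig means ran from 2.25 to 2.95 for the ANKRD1 RefSeq set, from 3.98 to 4.40 for its EST set and from 3.26 to 3.55 for CYR61 when a time was left out or the arrays were rescaled. The counts of listed genes at unadjusted p under 0.05 moved with the block and with single pigs. Without the block, 2 of the SRF target genes and 0 of the focal adhesion genes had such a p at 24 h. With it, 5 and 3 did. The causes were not tested. Signal over background is not known, which limits statements on the EST set in pig 1.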

Other observations

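The 25 probe sets with the widest range of pig means, chosen after their values were seen, include the 3 sets of ANKRD1 and CYR61. Of the other 22 sets, 13 had a single symbol. FOS led with a range of 4.46, and ATF3 (3.21), BTG2 (2.92), an antiproliferative early gene, and both EGR1 sets (2.83 and 2.73) were among them. So were HSPA6 (2.98), a strictly inducible heat shock gene, and CRYAB (2.59), the small heat shock protein αB-crystallin. Both CTSC sets (2.78 and 2.64), for the lysosomal protease cathepsin C, and ATP2A2 (2.62), for a calcium pump, were there too. Pig 1 was lowest for 12 of the 22, as it was for 30.8% of all probe sets, and pig 2 highest for 10, as it was for 37.4%. Some wide genes had another order of pigs: THBS2, thrombospondin 2, had pig means of 6.09, 5.66 and 9.15 in pigs 1, 2 and 3, and SMPDL3A 9.65, 11.01 and 7.95.

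When likeness was measured without removing the pig means, a choice made after seeing the data, other genes were nearest. For ANKRD1 they were EGR1 (root mean square difference 0.460 over 12 arrays), ATF3 (0.463), the phosphatase gene DUSP1 (0.532), KMT2E (0.540) and BTG2 (0.547). For CYR61 they were BTG2 (0.417), the mRNA decay factor gene ZFP36 (0.607), ATP2A2 (0.611), DUSP1 (0.622) and CRYAB (0.625). On this measure ANKRD1 and CYR61 lay 0.801 apart, with CYR61 at place 22 from ANKRD1 among the probe sets with 1 symbol, against place 156 after the pig means were removed. Seen from CYR61, ANKRD1 was at place 15 on this measure and at place 10054 after the pig means were removed, where 10069 sets have 1 symbol. After that removal the root mean square of ANKRD1 itself was 0.602 and that of CYR61 0.220. A set without any change would thus lie nearer to CYR61 than ANKRD1 does, at 0.494. The place therefore reflects the size of the ANKRD1 changes and not their course alone. BTG2 had pig means of 9.06, 11.98 and 10.71 in pigs 1, 2 and 3, the same order as CYR61, while its log2 changes at 24 h were -0.94, -0.05 and -1.08.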
